A study of Mus musculus with 9 samples.

Results

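The genes described here are 33 mouse genes of the amino acid response that is driven by the transcription factor Atf4. They were chosen by name, as Atf4 itself and genes known to be induced through it, and all 33 were found among the 24421 genes of the count table. Every one of them passed the filter on low counts, as did 13901 genes in all. Atf4 is translated preferentially when kinases phosphorylate the initiation factor eIF2 alpha, as happens when amino acids run short, when unfolded protein accumulates in the endoplasmic reticulum or when heme is lacking. Atf4 then raises transcription of enzymes that make serine, glycine, proline and asparagine, of amino acid transporters, of the synthetases that load tRNAs, and of inhibitors of translation and growth. Because much of the control of Atf4 lies in its translation, the RNA of its target genes is commonly read beside its own RNA.

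RNA was sequenced from 9 tumors of bEnd.3 cells, a mouse brain endothelial line transformed by polyomavirus middle T antigen, grown from cells placed in the right flank of male athymic Nu/Nu nude mice. These mice lack mature T cells but keep their own vessels, fibroblasts and macrophages, and since host and graft are both mouse their RNA cannot be separated. The 4 vehicle tumors came from mice given ethanol in DPBS, and the 5 R-propranolol tumors from mice given R-propranolol, the propranolol enantiomer with little beta-blocking activity, at 6 mg/kg/day by intraperitoneal injection on 5 days a week. Treatment started soon after the cells were placed, the sources used here do not give the age of the mice, and all tumors stem from 1 cell line. The comparison asks whether the drug changed the RNA of these genes in the tumors.

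Each tumor gave 1 library. Vehicle replicates 1 and 2 carry the same number in their titles and were taken as separate tumors. Levels are given as CPM, the counts of a gene scaled to a common library size after a correction for composition. Gene counts ran from 20599904 to 24949010 in the vehicle tumors and from 21084749 to 27852630 in the R-propranolol tumors. One library stood apart. In R-propranolol replicate 5, 10 skeletal muscle markers made up 10.3% of all gene counts, against at most 0.0373% in any other tumor, and their summed level was 144548 CPM against 5.32 to 349 CPM in vehicle and 4.96 to 10.8 CPM in R-propranolol replicates 1 to 4. Its 8 adipocyte markers summed to 4626 CPM against at most 368 CPM elsewhere. A second library, R-propranolol replicate 2, had 31300 CPM of 8 fibroblast markers, where the vehicle tumors had 5868 to 8500 CPM and replicate 5 had 16124 CPM, and 383 CPM of 6 mural cell markers against 95.6 to 140 CPM in vehicle. The 10 endothelial markers were all detected in every tumor, at 438 to 568 CPM in vehicle and 466 to 913 CPM after R-propranolol. In R-propranolol replicate 5 they stood at 741 CPM but at 0.0529% of gene counts, against 0.0455 to 0.0607% in vehicle. The composition correction multiplied the library size of that tumor by 0.753, against 0.966 to 1.10 in the others, which raises all its CPM. Macrophage markers summed to 856 to 2292 CPM in vehicle and 791 to 4330 CPM after R-propranolol. Hepatocyte markers stood at 21.2 to 74.4 CPM and 55.5 to 381 CPM, neutrophil markers at 101 to 197 CPM and 41.4 to 342 CPM, and keratinocyte and erythroid markers at no more than 16.8 and 25.7 CPM in any tumor. The comparison was therefore run with all 9 tumors and with the 8 tumors other than R-propranolol replicate 5. In such bulk samples, fewer cells of a type and less RNA per cell cannot be told apart.

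Many Atf4 targets carry, near their start site, the core of the amino acid response element, TGATGNAA, to which Atf4 binds with a C/EBP partner. RefSeq promoters (GRCm38.p6, 250 bases before to 50 after the start) were at hand for 27 of the 33 genes. Of the 27, 11 (40.7%) held this core on either strand. So did 4.51% of the 27025 genes with a promoter of the same length, and 2.90% of the 10491 tested genes among them. Because the 33 were picked as known Atf4 targets, their higher share is no test of the list. The 11 were Trib3, Nupr1, Asns, Pycr1, Slc7a11, Chac1, Vldlr, Gars, Iars, Aars and Tars. The windows below are shown for the genes whose values the results turn on. Each is 30 bases long, is read on the strand that holds the core, and has the core in capitals.
Trib3, chr2:152344028-152344057, plus strand: ccccgcccggcTGATGTAAacctgagctaa
Nupr1, chr7:126625562-126625591, plus strand: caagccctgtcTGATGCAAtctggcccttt
Asns, chr6:7693214-7693243, minus strand: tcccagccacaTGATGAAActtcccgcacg
Pycr1, chr11:120643833-120643862, minus strand: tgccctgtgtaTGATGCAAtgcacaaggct
Slc7a11, chr3:50443661-50443690, minus strand: tctcatgtggcTGATGCAAacctggagaat
Chac1, chr2:119351038-119351067, minus strand: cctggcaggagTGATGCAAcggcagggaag
Vldlr, chr19:27216809-27216838, minus strand: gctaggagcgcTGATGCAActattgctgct
Tars, chr15:11399655-11399684, plus strand: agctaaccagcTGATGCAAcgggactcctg
A match is a description of the letters and not a measured binding site. Slc7a11 and Aars each held another match, which is not shown. In the comparison with vehicle, 6 of the 11 genes with the core had a log2 fold change above 0 with a median of 0.05, against 8 of the 16 without it and a median of -0.01. Without R-propranolol replicate 5 these were 6 of 11 with a median of 0.01 and 11 of 16 with a median of 0.03.

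None of the 33 genes differed between R-propranolol and vehicle tumors after adjustment over all genes tested. In the edgeR quasi-likelihood test their smallest adjusted p was 0.876 with 9 tumors and 0.9995 with 8. No gene of the whole table passed either, 0% of 13901 and 0% of 13743, whereas DESeq2 called 2 genes with 9 tumors and 11 with 8, none of them among the 33. Before adjustment, 1 of the 33 genes, Pycr1, had p under 0.05 and was higher, against 2.01% of all genes tested, and none was lower, against 0.288% of all genes. With 8 tumors none of the 33 reached that level in either direction, against 2.65% of all genes higher and 1.13% lower. For none of them were the values of the groups fully separate, a pattern seen for 0.633% of all genes higher and 0.626% lower with 9 tumors, and for 1.83% and 1.09% with 8.

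The fold changes of the response genes centred on 0. With 9 tumors, 16 of the 33 genes had a log2 fold change above 0 (54.3% of all genes did) and 17 below, with a median of -0.02 where all genes had 0.03. Scaling by library size alone moved the median of all genes to -0.10 and left 10 of the 33 above 0, so these directions depend on the scaling. The range ran from -0.39 for Slc7a11 to 1.84 for Vldlr, and only Pycr1 and Vldlr reached a 2-fold difference, as 10.6% of all genes did. The interval around each value shows what size of change the data leave room for. For 27 of the 33 genes the 95% interval lay wholly within a 2-fold change either way, which held for 61.2% of all genes, and the median width of the interval was 0.96 log2 units against 1.15 over all genes. With 8 tumors, 21 genes were above 0 (53.7% of all genes) and 12 below, the median was 0.03 against 0.01 over all genes, and the values ran from -0.19 for Psph to 0.90 for Pycr1. None then reached a 2-fold difference, as 3.19% of all genes did, and 30 of the 33 had an interval within 2-fold, as did 80.3% of all genes. The 3 others were Ddit3, Ddit4 and Pycr1.

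**Figure D1:**
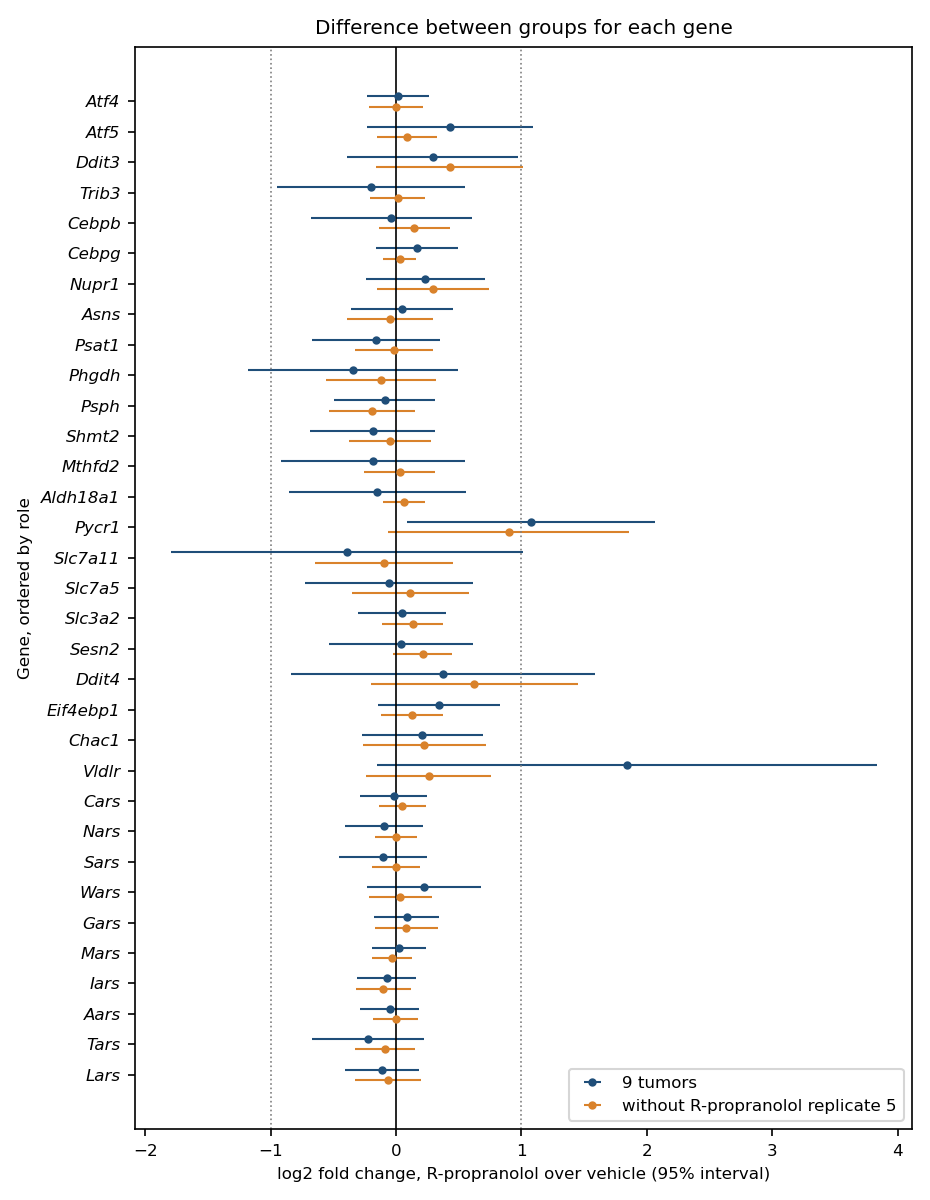
Log2 fold change of R-propranolol over vehicle (x axis, log2 scale) for each of the 33 genes (y axis, by role), with 95% intervals, from the fit of 9 tumors (blue) and of 8 tumors without R-propranolol replicate 5 (orange). Dotted lines mark a 2-fold change. With 8 tumors the intervals of all but Ddit3, Ddit4 and Pycr1 lie between the dotted lines.

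Atf4 itself (chromosome 15, 80255184 to 80257541, plus strand, GRCm38) was close to the same level in both groups. It measured 195, 217, 229 and 229 CPM in vehicle replicates 1 to 4, and 229, 224, 238, 180 and 227 CPM in R-propranolol replicates 1 to 5. The groups overlapped over nearly their whole ranges, and both the lowest and the highest tumor were treated ones. Vehicle averaged 217 ± 16.1 CPM (SD, n = 4), while R-propranolol averaged 220 ± 22.6 CPM (SD, n = 5). The log2 fold change was 0.01 with SE 0.11 and a 95% interval from -0.23 to 0.26. Without R-propranolol replicate 5 the value was 0.00 with an interval from -0.22 to 0.22. In the muscle-rich tumor, too, Atf4 was within the vehicle range. Per kilobase of exon, Atf4 was the second most abundant of the 33 RNAs in vehicle at 92.2 CPM per kb, after Cebpb at 336 and ahead of Phgdh at 64.6, while Vldlr at 2.65 and Pycr1 at 0.510 were the lowest.

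The other regulators form the transcription factor network around Atf4. Ddit3 encodes CHOP, a C/EBP family factor induced by Atf4 under lasting stress (chromosome 10, 127290774 to 127296288, plus strand). It stood at 21.7, 27.2, 25.8 and 25.9 CPM in vehicle and at 26.6, 38.9, 50.04, 20.04 and 18.2 CPM after R-propranolol. R-propranolol replicates 2 and 3 were above every vehicle tumor and replicates 4 and 5 below every one. The log2 fold change was 0.29 (SE 0.30), and 0.43 (SE 0.26, 95% interval -0.16 to 1.01) without replicate 5. Its exons share 68 bases with those of Mars on the opposite strand, and no source used here gives the strand setting of the counting. Nupr1, a small stress-induced chromatin protein, had the same 2 tumors on top, with 43.1 and 41.1 CPM in R-propranolol replicates 2 and 3 against 25.2 to 29.3 CPM in vehicle and 22.3 to 28.6 CPM in the other R-propranolol tumors. Its log2 fold change was 0.23 (SE 0.21) with 9 tumors and 0.30 (SE 0.20) with 8.

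Trib3, a pseudokinase that is induced by Atf4 and CHOP and restrains them in turn, was at nearly 1 level in 8 of the tumors. It measured 11.4, 11.5, 10.2 and 11.1 CPM in vehicle and 10.4, 11.2, 11.999 and 10.985 CPM in R-propranolol replicates 1 to 4, but 3.32 CPM in replicate 5. Its log2 fold change was -0.20 (SE 0.33) with replicate 5 and 0.01 (SE 0.10, 95% interval -0.21 to 0.23) without it. Cebpb, a C/EBP factor that partners Atf4, was the most abundant of the 33 per kilobase, with 450, 536, 480 and 555 CPM in vehicle and 635, 515, 630, 463 and 219 CPM after R-propranolol. Replicates 1 and 3 lay above all vehicle tumors and replicate 5 lay below them all, for a log2 fold change of -0.04 (SE 0.28) that became 0.15 (SE 0.12) without replicate 5. Atf5, an Atf4-related factor of the mitochondrial stress response, ran from 59.8 to 70.5 CPM in vehicle and from 59.4 to 80.5 CPM in R-propranolol replicates 1 to 4, with 161 CPM in replicate 5. Cebpg, another dimer partner of Atf4, ran from 55.4 to 60.6 CPM and from 56.2 to 60.9 CPM, with 88.2 CPM in replicate 5. The log2 fold changes of Atf5 and Cebpg went from 0.43 (SE 0.29) and 0.17 (SE 0.14) to 0.09 and 0.03 when replicate 5 was left out. Over the 7 regulators, 5 were above 0 and 2 below with 9 tumors (median 0.17), and 7 were above 0 with 8 tumors (median 0.09, Atf4 at 0.00), none past the test.

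**Figure D2:**
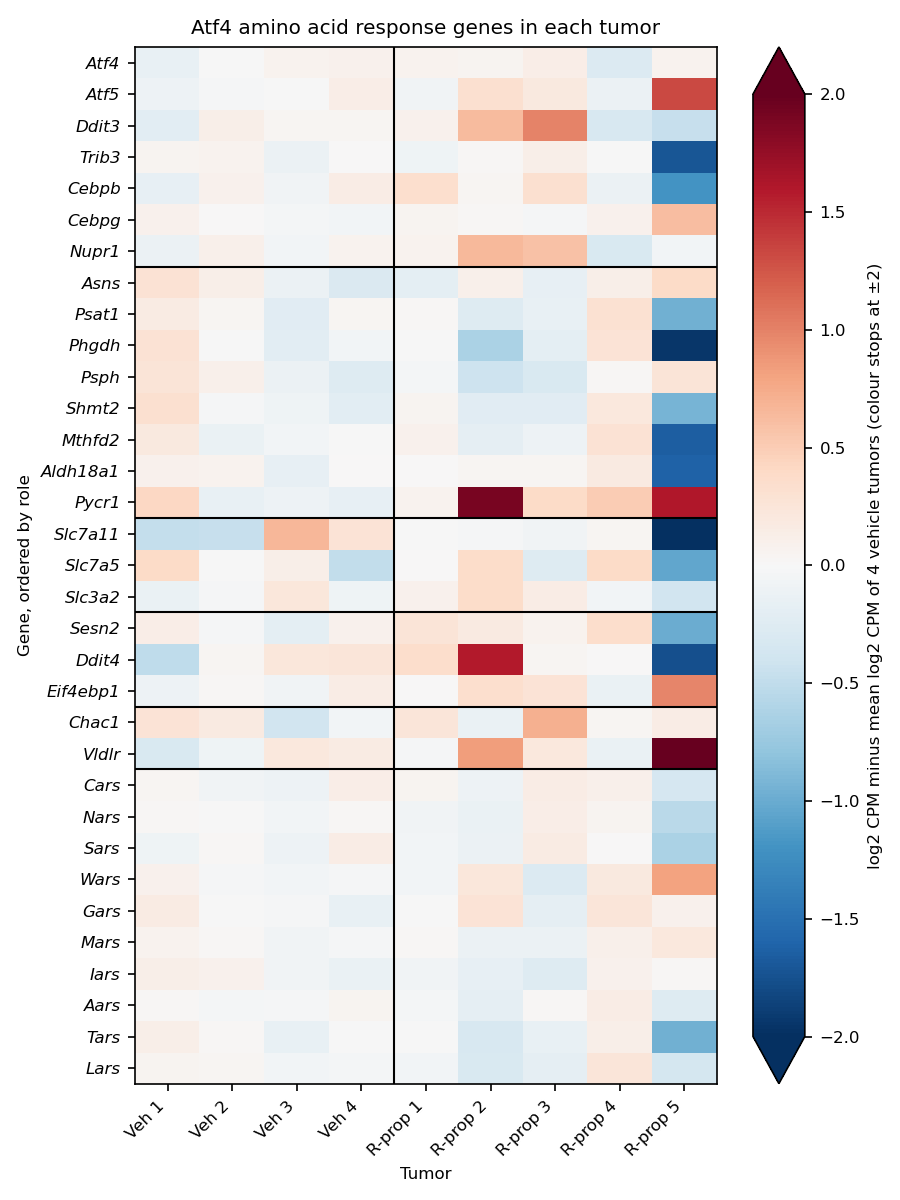
Log2 CPM of each of the 33 genes (y axis, ordered by role, black lines between roles) in each of the 9 tumors (x axis), minus the mean of the 4 vehicle tumors; the colour scale is in log2 units and stops at ±2. R-propranolol replicate 5 carries most of the deep colour, and Pycr1 and Ddit4 in R-propranolol replicate 2 stand out among the rest.

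The amino acid enzymes fall into those of serine and one-carbon metabolism, those of proline synthesis and Asns. Pycr1, which carries out the last step of proline synthesis (chromosome 11, 120635712 to 120643769, minus strand), was the gene with the smallest p. It was also the least abundant of the 33 per kilobase, with 62, 46, 46 and 37 counts in vehicle and 59, 189, 72, 69 and 93 counts after R-propranolol. In CPM these were 2.67, 1.77, 1.83 and 1.76 for vehicle and 2.08, 7.56, 2.59, 2.83 and 6.18 for R-propranolol. Replicates 2 and 5 were far above all other tumors, replicate 4 was slightly above the highest vehicle tumor, and replicates 1 and 3 were within the vehicle range. The log2 fold change was 1.08 (SE 0.44, 95% interval 0.09 to 2.07), with an unadjusted p of 0.0358 and an adjusted p of 0.876 in the edgeR quasi-likelihood test. Without replicate 5 it was 0.90 (SE 0.42, 95% interval -0.06 to 1.86), and without both replicates 2 and 5 it was 0.32 (SE 0.24). Replicates 2 and 5, the tumors with high Pycr1, were also the pair with the highest sums of fibroblast markers, 31300 and 16124 CPM. The same pair was highest for endothelial (913 and 741 CPM), macrophage (3732 and 4330 CPM), mural (383 and 279 CPM) and hepatocyte markers (183 and 381 CPM). It was not the highest pair for the other marker lists. The part of any of these cell types in the Pycr1 values was not tested.

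Aldh18a1, which makes the precursor that Pycr1 reduces, did not share this pattern. It ran from 93.5 to 111 CPM in vehicle and from 105 to 118 CPM in R-propranolol replicates 1 to 4, and was at 34.1 CPM in replicate 5. Without that tumor its log2 fold change was 0.06 with a 95% interval from -0.10 to 0.23, one of the narrowest of the set. Asns, asparagine synthetase, measured 18.3, 16.3, 13.9 and 12.2 CPM in vehicle and 13.1, 16.1, 13.3, 16.4 and 19.6 CPM after R-propranolol, so the groups overlapped widely (log2 fold change 0.05, SE 0.18, and -0.05, SE 0.15, with 8 tumors).

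Phgdh, the first enzyme of serine synthesis (chromosome 3, 98313170 to 98339990, minus strand), stood at 195, 158, 137 and 153 CPM in vehicle and at 158, 103, 138, 193 and 41.4 CPM after R-propranolol. Replicate 5 was lowest and replicate 2 next, both under the vehicle range, and the other 3 treated tumors were inside it. Its log2 fold change of -0.34 (SE 0.37) became -0.12 (SE 0.19, 95% interval -0.55 to 0.32) without replicate 5 and 0.02 (SE 0.15) without replicates 2 and 5. Psat1 and Psph, the next enzymes of that path, had log2 fold changes of -0.16 (SE 0.22) and -0.09 (SE 0.18), and of -0.01 and -0.19 with 8 tumors. The mitochondrial folate enzymes Shmt2 and Mthfd2 had -0.19 (SE 0.22) and -0.18 (SE 0.32), and -0.05 and 0.03 with 8 tumors. Mthfd2 was between 36.2 and 50.3 CPM in 8 tumors and at 13.0 CPM in replicate 5. Of the 8 enzymes 2 were above 0 and 6 below with 9 tumors (median -0.15), and 3 and 5 with 8 tumors (median -0.03).

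The enzymes and synthetases also varied between tumors of the same group. In vehicle replicate 1 all 8 enzymes and 9 of the 10 synthetases were above their vehicle mean, whereas in vehicle replicate 3 all 8 and all 10 were below it. R-propranolol replicate 4 resembled vehicle replicate 1, with all 8 enzymes and all 10 synthetases above the vehicle mean, by medians of 0.25 and 0.11 on the log2 scale. That tumor had the lowest Atf4 of the 9. R-propranolol replicate 2 held the lowest value of 4 enzymes and 5 synthetases among the 8 tumors.

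The transporters import cystine and large neutral amino acids. Slc7a11, the cystine-glutamate exchanger (chromosome 3, 49892526 to 50443614, minus strand), varied more among vehicle tumors than the other transporters. It measured 46.8, 47.4, 103 and 78.2 CPM in vehicle, then 64.6, 63.7, 61.9 and 67.1 CPM in R-propranolol replicates 1 to 4 and 4.59 CPM in replicate 5. The 4 treated tumors lay close together in the middle of the vehicle range and the fifth was 0.067 times the vehicle mean, the lowest such ratio of the 33 genes. The log2 fold change was -0.39 (SE 0.62, 95% interval -1.80 to 1.01), and -0.10 (SE 0.24) without replicate 5. Slc7a5, the light chain of the large neutral amino acid transporter, ran from 33.4 to 61.5 CPM in vehicle and from 22.8 to 61.2 CPM after R-propranolol (log2 fold change -0.05, SE 0.29). Slc3a2, the heavy chain that both exchangers share, ran from 137 to 176 CPM and from 115 to 193 CPM (log2 fold change 0.05, SE 0.15). With 8 tumors the latter pair had log2 fold changes of 0.11 and 0.14.

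Sesn2, Ddit4 and Eif4ebp1 encode inhibitors of the growth kinase mTORC1 or of cap-dependent translation. Ddit4 (chromosome 10, 59949669 to 59951834, minus strand), also induced by low oxygen and glucocorticoids, stood at 56.3, 81.8, 94.0 and 94.3 CPM in vehicle and at 102, 241, 82.1, 80.8 and 23.5 CPM after R-propranolol. Replicate 2 was at 2.95 times the vehicle mean and replicate 5 at 0.288 times, and the rest lay near the vehicle tumors. The log2 fold change was 0.38 (SE 0.54) with 9 tumors, 0.63 (SE 0.36, 95% interval -0.20 to 1.45) with 8, and -0.18 with replicate 2 alone left out. Without both tumors it was 0.12 (SE 0.18). Replicate 2 is the tumor with 31300 CPM of fibroblast markers. It also had the highest sums of endothelial (913 CPM), mural (383 CPM), neutrophil (342 CPM) and erythroid markers (25.7 CPM). The part of any of these cell types in its Ddit4 level was not tested. Sesn2 ran from 16.1 to 20.4 CPM in vehicle and from 19.6 to 23.7 CPM in R-propranolol replicates 1 to 4, of which 3 were above the highest vehicle tumor, with 9.31 CPM in replicate 5. Its log2 fold change was 0.04 (SE 0.25), and 0.21 (SE 0.10, 95% interval -0.02 to 0.45) without that tumor. Eif4ebp1 ran from 102 to 121 CPM in vehicle and from 100 to 138 CPM in replicates 1 to 4, with 215 CPM in replicate 5, and its log2 fold change of 0.34 (SE 0.21) became 0.13 (SE 0.11).

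**Figure D3:**
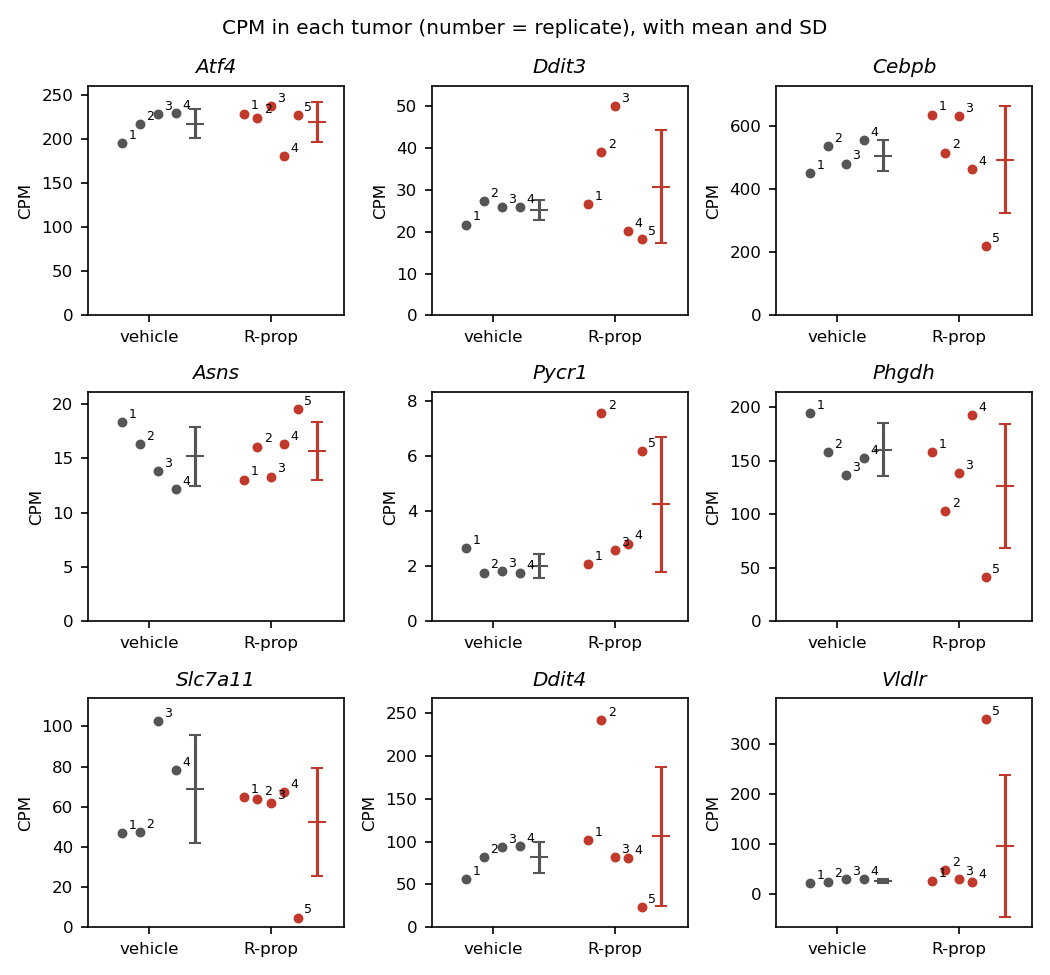
CPM (y axis, linear) of 9 of the genes in each vehicle (grey, n = 4) and R-propranolol (red, n = 5) tumor, with the replicate number beside each point and the mean with SD at the right of each group. Atf4 overlaps almost wholly between groups; Pycr1 is high in R-propranolol replicates 2 and 5, Ddit4 in replicate 2 and Vldlr in replicate 5.

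Vldlr and Chac1 are targets outside amino acid synthesis. Vldlr, a lipoprotein receptor of muscle, fat and endothelium (chromosome 19, 27216484 to 27254231, plus strand), had the largest fold change of the set and 1 tumor gave it. It measured 21.4, 24.9, 30.7 and 29.7 CPM in vehicle and 25.9, 47.4, 30.7, 24.2 and 350 CPM after R-propranolol, so that replicate 5 was at 13.1 times the vehicle mean. The log2 fold change was 1.84 (SE 0.88, 95% interval -0.15 to 3.83) with that tumor, 0.26 (SE 0.22, 95% interval -0.24 to 0.76) without it and 0.02 (SE 0.14) without replicates 2 and 5. Chac1, which degrades glutathione and is one of the more responsive Atf4 targets, measured 15.5, 14.5, 9.84 and 12.4 CPM in vehicle and 15.3, 11.7, 21.1, 13.2 and 14.4 CPM after R-propranolol. Only replicate 3, the tumor with the highest Ddit3, was above the vehicle range, and the log2 fold change was 0.21 (SE 0.21) with 9 tumors and 0.23 (SE 0.21) with 8.

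The 10 cytosolic tRNA synthetases gave the tightest estimates. Their log2 fold changes ran from -0.22 for Tars to 0.22 for Wars, 3 above 0 and 7 below (median -0.06), and all 10 intervals lay within -0.67 and 0.68. With 8 tumors the values ran from -0.10 for Iars to 0.08 for Gars (4 above 0, 6 below), and all intervals lay within -0.32 and 0.34. Tars, the threonyl-tRNA synthetase, measured 175, 164, 146 and 160 CPM in vehicle and 160, 129, 145, 174 and 82.9 CPM after R-propranolol, with replicates 2, 3 and 5 under the vehicle range, replicate 3 by less than 1 CPM. Wars, for tryptophan, was at 70.8 CPM in replicate 5 against 33.8 to 47.4 CPM in the other 8 tumors. The remaining 8, Cars, Nars, Sars, Gars, Mars, Iars, Aars and Lars, had log2 fold changes between -0.11 and 0.08 with 9 tumors. The exons of Aars share 1326 bases with another gene on the same strand, so its reads there may not be assigned to either.

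R-propranolol replicate 5 set most of the spread among treated tumors. Over the 33 genes the median SD of log2 CPM was 0.12 in vehicle and 0.42 in R-propranolol, which fell to 0.21 without that tumor, against 0.16, 0.48 and 0.19 over all genes. The tumor held the lowest of the 9 values for 19 of the 33 genes (57.6%, against 42.1% of all genes) and the highest for 7 (21.2%, against 36.5%). The median absolute difference of its log2 CPM from the vehicle mean was 0.80 for the 33 genes, close to the 0.86 over all genes, whereas in the other tumors it was between 0.03 and 0.22. The highest ratios to the vehicle mean were Vldlr at 13.1, Pycr1 at 3.08, Atf5 at 2.49 and Eif4ebp1 at 1.97. The lowest were Slc7a11 at 0.067, Phgdh at 0.258, Ddit4 at 0.288, Trib3 at 0.301, Mthfd2 at 0.316 and Aldh18a1 at 0.326. By role the median difference from the vehicle mean was -0.06 for the regulators, -0.95 for the enzymes and -1.04 for the transporters. It was -0.99 for the inhibitors and -0.30 for the synthetases. Chac1 was at 0.16 and Vldlr at 3.73, with a midpoint of 1.94. These values stand beside 144548 CPM of skeletal muscle markers in the same library, whose part in them was not tested.

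**Figure D4:**
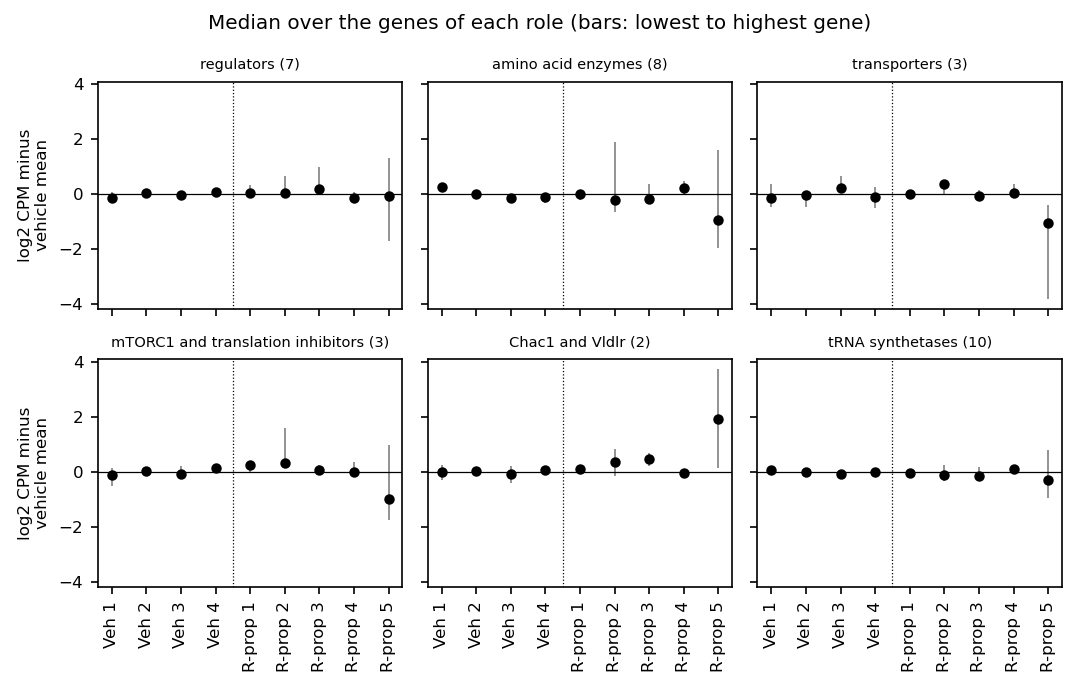
Median over the genes of each role (points, with the number of genes in brackets) of log2 CPM minus the vehicle mean (y axis, log2 units) in each tumor (x axis), with bars from the lowest to the highest gene. In R-propranolol replicate 5 the enzymes, transporters and inhibitors are at -0.95, -1.04 and -0.99, the regulators at -0.06 and the synthetases at -0.30. The point for Chac1 and Vldlr is at 1.94 there, midway between Chac1 at 0.16 and Vldlr at 3.73. Medians lie between -0.20 and 0.46 in the other 8 tumors.

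Other genes of the pathway are given by list, and no gene in any of these lists passed the adjusted test. Of 14 kinases of eIF2 alpha and subunits of eIF2 and its exchange factor eIF2B, 8 were above 0 and 6 below with 9 tumors (median 0.04), and 6 and 8 with 8 tumors (median -0.00). With 8 tumors 1 of them, Eif2ak4, the kinase Gcn2 that senses uncharged tRNA, had p under 0.05 before adjustment. Eif2ak4 ran from 53.9 to 68.1 CPM in vehicle and from 70.8 to 91.4 CPM in R-propranolol replicates 1 to 4, a log2 fold change of 0.29 (SE 0.11), but was at 22.4 CPM in replicate 5, with which the value was 0.08 (SE 0.33). Of 5 genes of eIF2 alpha phosphatase, 3 were above 0 and 2 below with 9 tumors (median 0.08), and 4 and 1 with 8 (median 0.10). Of these Ppp1cb, a catalytic subunit, had a log2 fold change of 0.42 (SE 0.26) with 9 tumors and 0.11 (SE 0.06) with 8.

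Among 20 further Atf4 targets tested, 12 were above 0 and 8 below with 9 tumors (median 0.06), and 14 and 6 with 8 tumors (median 0.04). Atf3, a stress-induced factor that Atf4 shares with other stress pathways, had the smallest p of the list with 8 tumors. It ran from 29.96 to 38.4 CPM in vehicle and stood at 43.2, 51.5, 67.2 and 40.05 CPM in R-propranolol replicates 1 to 4, all above the vehicle range, and at 23.4 CPM in replicate 5. Its log2 fold change was 0.61 (SE 0.16) with 8 tumors, with an unadjusted p of 0.00552 and an adjusted p of 0.9995 by edgeR, and 0.45 (SE 0.26) with 9. Mthfd1l, a mitochondrial folate enzyme, had 0.21 (SE 0.09) with 8 tumors and -0.04 with 9. Stbd1, a glycogen-binding protein, had a log2 fold change of 5.01 (SE 1.99) that rested on 80.1 CPM in replicate 5, with at most 4.603 CPM in the other tumors, and was at 1.39 (SE 1.01) without it.

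Of 11 genes of other cytosolic synthetases and their partners 4 were above 0 and 7 below, both with 9 tumors (median -0.04) and with 8 (median -0.03). Aimp2, a scaffold of the synthetase complex, was at 0.53 (SE 0.38) with 9 tumors and 0.01 (SE 0.07) with 8. Of 17 mitochondrial synthetases 11 were above 0 and 6 below with 9 tumors (median 0.07), and 9 and 8 with 8 (median 0.01). Among them Tars2 had p under 0.05 before adjustment with 8 tumors, at a log2 fold change of 0.13 (SE 0.05), against 0.09 (SE 0.09) with 9, and Nars2 had 0.26 (SE 0.15) with 9 tumors and 0.22 (SE 0.12) with 8. The 17 genes of the Atf6 and Xbp1 arms of the unfolded protein response, some of which Atf4 can also induce, had 5 above 0 and 12 below with 9 tumors (median -0.05), and 11 and 6 with 8 (median 0.03). Herpud1, a component of endoplasmic reticulum degradation, had the smallest p of that list with a log2 fold change of 0.98 (SE 0.47) with 9 tumors and 0.38 (SE 0.20) with 8, and measured 92.5 CPM in replicate 5 and 37.8 CPM in replicate 2 against 17.9 to 21.4 CPM in vehicle.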

How the data were processed

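RNA of 9 bEnd.3 tumors, 4 from vehicle-treated and 5 from R-propranolol-treated nude mice, was sequenced as 1 library each. The authors deposited raw counts of reads per gene (mm10, with STAR and HTSeq named in the submitters' processing notes; no source used here gives the annotation or the strand setting). Rows naming no gene were left out. Of the counts in all rows, reads outside any gene made up 13.4 to 15.4%. Reads without a unique alignment made up 7.86% in R-propranolol replicate 5 and 3.46 to 3.99% in the other tumors. Genes with about 10 counts or more by edgeR's filter (minimum total 15) were scaled by TMM. R-propranolol was compared with vehicle over all genes by edgeR's quasi-likelihood test (edgeR 4.0.16, R 4.3.3) with Benjamini-Hochberg adjusted p, threshold 0.05. CPM are TMM-scaled, and log2 CPM uses a prior count of 2. Positions and exon lengths come from GENCODE M21 (GRCm38). The procedure was tested on simulated data. The genes, lists and tests were chosen with earlier results of these data known. Named genes were Atf4, those with p under 0.05 before adjustment, the 3 highest and 3 lowest fold changes, the 3 most abundant per kb and those with 1 tumor far from its group. From other lists came up to 3 genes with p under 0.05, or else that with the smallest, and other genes named were chosen after their values were seen. No label gives a batch, and p-values set the difference between groups against the spread between these tumors. Alternatives were DESeq2 1.42.0, limma-voom 3.58.1 with quality weights, other scalings and filters, a replicate block, vehicle replicates 1 and 2 summed (their titles carry 1 number) and leaving out tumors.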

Additional observations from a re-analysis of the deposited data

Results flagged for a closer look

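Within each group, the gap between the most extreme tumor and its nearest neighbour was set against the whole range of the group, for 33 genes in 2 groups. Of these 66 sets of values 9 had 1 tumor farther out than Dixon's 95% critical value, where chance gives about 1 in 20. The rule was not run over all genes, so 9 of 66 cannot be read as particular to these genes. Of the 9, 7 were R-propranolol replicate 5, whose median absolute difference from the vehicle mean was 0.80 for the 33 genes and 0.86 over all genes. That tumor was the lowest of its group for Slc7a11 (4.59 CPM), Aldh18a1 (34.1 CPM), Trib3 (3.32 CPM), Sesn2 (9.31 CPM) and Mthfd2 (13 CPM), and the highest for Cebpg (88.2 CPM) and Vldlr (350 CPM). R-propranolol replicate 4 was the lowest treated tumor for Atf4, at 180 CPM. Vehicle replicate 1 was the highest vehicle tumor for Pycr1, at 2.67 CPM.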

How the results depend on the processing

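No value of the 33 genes passed an adjusted p of 0.05 under any of 17 other settings or the 1 chosen after seeing the data, which left out R-propranolol replicates 2 and 5, and the lowest such p was 0.66. DESeq2 gave Vldlr, the gene with the largest fold change, no adjusted p with 9 tumors. Of 594 values of single genes 69 changed sign, in 23 genes, the largest of which had a log2 fold change of -0.39. Over the whole table DESeq2 called 2 genes with 9 tumors (Dusp1 and Egr1, named after their values were seen) and 11 with 8, none of them among the 33. Genes with p under 0.05 before adjustment numbered 320, and 656 by DESeq2, 838 by limma-voom with quality weights, 626 with no filter, 100 with vehicle replicates 1 and 2 summed, 639 without R-propranolol replicates 2 and 5, and 103 to 737 when single tumors were left out. With 8 tumors the 519 became 861 by limma-voom and 353 to 743 without single tumors. Among the 33, the count of 1 became 0 with library size alone (242 genes in all), with vehicle replicates 1 and 2 summed and without R-propranolol replicates 2 and 5. It lay between 0 and 3 without single tumors, with 3 when R-propranolol replicate 4 was left out. In that setting 737 genes in all had p under 0.05. With 8 tumors the count of 0 became 1 by limma-voom and lay between 0 and 3. Genes of the 33 above 0 numbered 10 with library size alone, 26 without R-propranolol replicates 2 and 5, and 15 to 21 without single tumors. With 8 tumors they numbered 14 with library size alone and 18 to 26 without single tumors. The share of all genes above 0 was counted only for the main fits of 9 and 8 tumors, at 54.3% and 53.7%. The median of all genes was -0.10 with library size alone and -0.003 without R-propranolol replicates 2 and 5, both from the 9 tumors. The median of the 33 lay between -0.04 and 0.03 without single tumors, and with 8 tumors was -0.025 with library size alone and lay between 0.02 and 0.06.

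The replicate numbers were not taken as pairs. Deviations of same-numbered tumors correlated at -0.02, -0.03, -0.58 and 0.39, and those of differently numbered tumors at -0.66 to 0.72. Because each gene was centred within its group, these values depend on one another and cannot exclude a shared batch. With the replicate block 0 of the 33 genes had p under 0.05 before adjustment and, with 8 tumors, 268 genes in all did. No vehicle tumor shares the number of R-propranolol replicate 5, so under the block that tumor added nothing to the group difference. Under the block Atf4 was -0.0021, Trib3 0.016, Cebpb 0.14, Asns -0.037, Mthfd2 0.023, Aldh18a1 0.067, Slc7a5 0.12, Cars 0.0535, Sars 0.0033 and Mars -0.029, all log2 fold changes, as are those that follow. With library size alone Atf4 was -0.12, Asns -0.11, Slc3a2 -0.071, Sesn2 -0.051, Gars -0.053 and Mars -0.12. By limma-voom with quality weights Cebpb was 0.20, Asns -0.17, Psat1 0.016, Shmt2 0.014, Mthfd2 0.099, Aldh18a1 0.021, Slc7a11 0.099, Slc7a5 0.034, Cars 0.092, Wars -0.016, Mars -0.0048 and Aars 0.016. Without R-propranolol replicates 2 and 5 Atf4 was -0.010, Trib3 0.014, Cebpb 0.19, Asns -0.092, Psat1 0.067, Phgdh 0.025, Shmt2 0.015, Mthfd2 0.097, Aldh18a1 0.076, Slc7a5 0.037, Cars 0.11, Nars 0.046, Sars 0.043, Wars -0.028, Aars 0.054 and Lars 0.016. With no filter Atf4 was -0.0036, and with vehicle replicates 1 and 2 summed Atf4 was -0.0013 and Slc7a5 0.0080.

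Leaving out single tumors, the 14 genes that changed sign ranged from -0.022 to 0.093 (Atf4), -0.29 to 0.014 (Trib3), -0.15 to 0.15 (Cebpb), -0.050 to 0.17 (Asns), -0.19 to 0.021 (Psph), -0.34 to 0.029 (Mthfd2), -0.25 to 0.063 (Aldh18a1), -0.20 to 0.11 (Slc7a5), -0.041 to 0.14 (Slc3a2), -0.047 to 0.21 (Sesn2), -0.18 to 0.63 (Ddit4), -0.054 to 0.052 (Cars), -0.17 to 0.0018 (Sars) and -0.028 to 0.081 (Mars). The cause of these changes was not tested. The number of tumors and the spread between them limit the precision of each value to its interval.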
